A study of Mus musculus with 3 samples.

Results

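The pericyte genes described here are 8 genes used as markers of mural cells of the smallest vessels: *Rgs5*, *Pdgfrb*, *Cspg4*, *Notch3*, *Kcnj8*, *Abcc9*, *Vtn* and *Rgs4*. They were chosen by symbol, and all 8 were found among the 32285 genes listed for each of 3 mouse heart sections. The sections were measured with Visium, an array of barcoded spots that captures polyadenylated RNA from tissue laid over it, so that a spot reads a small region holding several cells of different types. Each condition had 1 section: a sham heart, a heart after ischemia-reperfusion (I/R), and a heart after I/R in a mouse given the Shexiang Baoxin Pill, labelled MUSKARDIA (SBP). All mice were C57BL/6 of 8 weeks. They received gavage for 7 days before the operation, with vehicle in sham and I/R and with the pill in SBP. In I/R and SBP the left anterior descending coronary artery was ligated for 30 min and reperfused for 24 h, and in sham the needles were passed with no ligation. Cryosections were 10 µm thick. No condition had a replicate, so no difference between conditions was tested, and condition, animal, section and slide area cannot be told apart.

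Pericytes are mural cells that sit within the basement membrane of capillaries, in contact with endothelial cells. Endothelial PDGF-B recruits and holds them through the receptor PDGFRβ, Notch signaling through NOTCH3 keeps mural cells mature, and the ATP-sensitive potassium channel made of Kir6.1 and SUR2 sets their membrane potential and with it capillary tone. In the heart they are abundant, and after coronary occlusion they are known for narrowing capillaries during reperfusion. None of the 8 genes is read out in pericytes alone: arterial smooth muscle also uses *Pdgfrb*, *Notch3*, *Rgs5*, *Kcnj8* and *Abcc9*, fibroblasts can use *Pdgfrb*, and cardiomyocytes use *Abcc9* with *Kcnj11*.

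In the mouse genome (GRCm38, GENCODE M21), 4 of the 8 genes form neighboring pairs. *Rgs5* (ENSMUSG00000026678) lies on the plus strand of chromosome 1 from 169655501 to 169695813, and *Rgs4* (ENSMUSG00000038530) on the minus strand from 169741477 to 169747642, with 45663 bases between them and no other coding gene. *Kcnj8* (ENSMUSG00000030247) lies on the minus strand of chromosome 6 from 142564837 to 142571614, and *Abcc9* (ENSMUSG00000030249) on the same strand from 142587862 to 142702315, with 16247 bases between them. *Cspg4* (ENSMUSG00000032911) lies on chromosome 9 from 56865033 to 56899870 and *Vtn* (ENSMUSG00000017344) on chromosome 11 from 78499091 to 78502324, both on the plus strand. *Notch3* (ENSMUSG00000038146) lies on the minus strand of chromosome 17 from 32120820 to 32166852. It is overlapped on the plus strand by *Gm17276*, which held 20 to 25 unique molecular identifiers (UMIs) per section, and *Abcc9* is overlapped by *5330439B14Rik*, which held 0.

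The promoter windows of the neighboring pairs are shown because the genes of these pairs are set side by side in the values that follow. Each window runs from 250 bases before to 50 after the gene's start in RefSeq (GRCm38.p6), 5′ to 3′ on the gene's strand, and 7 of the 8 genes had an entry. Capitals mark matches to the MEF2 motif CTAAAAATA or the TATA box TATAAA.
Rgs5 (chr1:169655251-169655550, plus strand): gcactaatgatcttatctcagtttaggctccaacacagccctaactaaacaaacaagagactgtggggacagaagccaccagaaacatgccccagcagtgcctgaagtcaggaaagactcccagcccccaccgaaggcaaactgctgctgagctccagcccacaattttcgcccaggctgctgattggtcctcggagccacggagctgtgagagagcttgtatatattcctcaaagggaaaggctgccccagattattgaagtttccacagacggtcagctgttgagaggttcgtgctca
Rgs4 (chr1:169747593-169747892, minus strand): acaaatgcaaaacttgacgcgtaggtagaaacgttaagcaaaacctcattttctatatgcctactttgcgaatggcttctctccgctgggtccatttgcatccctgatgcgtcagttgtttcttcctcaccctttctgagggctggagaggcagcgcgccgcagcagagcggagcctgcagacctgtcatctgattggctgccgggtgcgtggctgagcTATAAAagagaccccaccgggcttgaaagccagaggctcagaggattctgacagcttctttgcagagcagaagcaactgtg
Kcnj8 (chr6:142571565-142571864, minus strand): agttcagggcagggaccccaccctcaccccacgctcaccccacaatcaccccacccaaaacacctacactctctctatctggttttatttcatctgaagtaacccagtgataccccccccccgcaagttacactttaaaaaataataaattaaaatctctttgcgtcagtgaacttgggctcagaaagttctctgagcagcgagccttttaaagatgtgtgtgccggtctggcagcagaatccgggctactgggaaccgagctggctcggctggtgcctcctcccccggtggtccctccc
Abcc9 (chr6:142702225-142702524, minus strand): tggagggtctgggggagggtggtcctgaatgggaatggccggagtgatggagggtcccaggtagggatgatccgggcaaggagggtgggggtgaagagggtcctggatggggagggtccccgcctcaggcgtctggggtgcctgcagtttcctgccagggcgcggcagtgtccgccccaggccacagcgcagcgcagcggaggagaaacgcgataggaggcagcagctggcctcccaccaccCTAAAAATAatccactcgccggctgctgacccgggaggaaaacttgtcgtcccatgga
Both strands were searched for the 2 motifs above, for GTGGGAA, the sequence bound by RBPJ, the factor through which Notch receptors act on genes, and for the CArG box bound by serum response factor. In the *Abcc9* window CTAAAAATA spanned positions 243 to 251, a match that 0.517% of all 32851 promoter windows of this length hold. In the *Rgs4* window TATAAA spanned positions 220 to 225, and in the *Vtn* window, not printed, it was found on both strands in overlapping copies, a match that 13.6% of all windows hold. The RBPJ letters, in 6.38% of all windows, and the CArG box, in 1.63%, were in none of the 7 windows, and the *Rgs5*, *Kcnj8*, *Cspg4* and *Notch3* windows held none of the 4 motifs.

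After spots with fewer than 200 genes were left out, 2234 spots of sham, 2082 of I/R and 1960 of SBP remained, with 25118258, 30238530 and 21631280 UMIs. The median spot held 10645 UMIs in sham, 14672 after I/R and 10652.5 with SBP. Mitochondrial genes took 48.6%, 44.3% and 46.3% of UMIs. Of the barcodes, which name positions on the slide, 1093 occurred in all 3 sections. Levels are given in UMIs of the gene per 1000000 UMIs of the section (CPM), not corrected for gene length, with 95% exact Poisson intervals that cover counting error only. A gene was counted as past 1.5-fold where its ratio was at least that large, the 95% counting interval of the log2 ratio excluded 0 and the regions compared held at least 50 UMIs together.

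The 8 genes together were lowest in I/R. They summed to 472 CPM (463 to 480) in sham, 356 CPM (350 to 363) after I/R and 429 CPM (421 to 438) with SBP. The summed level differed by −0.40 on the log2 scale between I/R and sham, by 0.27 between SBP and I/R and by −0.13 between SBP and sham, and each of the 3 intervals excluded 0. *Rgs5* held 49.4%, 42.8% and 45.9% of the summed UMIs, so the sum follows that gene closely. The sum of 18 other pericyte genes, named in part below, was lowest in sham, at 274 CPM beside 307 after I/R and 322 with SBP. Of it, *Art3* held 67.0, 77.8 and 111 CPM and *Mcam* 28.0, 49.0 and 26.7 CPM. The median log2 ratio of the 18 was 0.18 in I/R over sham and −0.08 in SBP over sham, so their sum did not stand for every gene. In a spot array, fewer cells of a type and less RNA per cell cannot be told apart. The 8 genes did not all move with their own sum: *Rgs5*, *Abcc9* and *Vtn* were lower in I/R than in both other sections, *Pdgfrb* and *Cspg4* were higher in I/R and SBP than in sham, and *Rgs4* was lower in I/R and SBP than in sham.

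**Figure D1:**
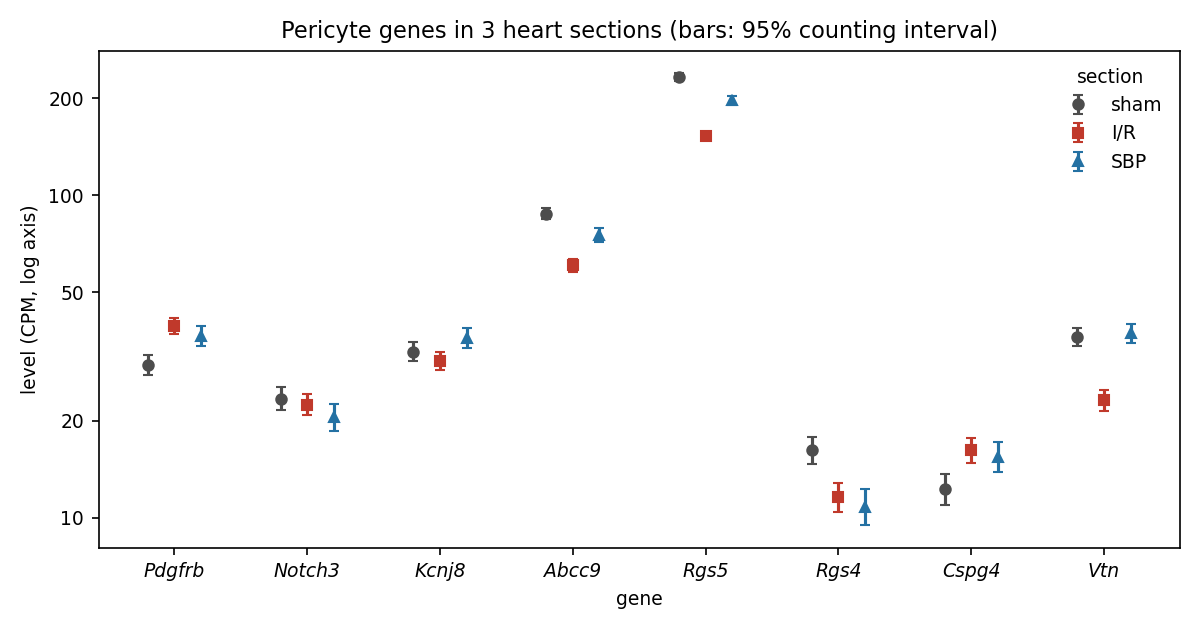
Level of each of the 8 genes in the sham, I/R and SBP sections, in CPM on a log axis, 1 point per section. Bars are 95% Poisson counting intervals; *Rgs5* was at 233, 153 and 197 CPM and *Cspg4* at 12.3, 16.2 and 15.4 CPM.

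*Pdgfrb*, the receptor for endothelial PDGF-B, was detected at 29.8 CPM (27.7 to 32.0) in sham, 39.3 CPM (37.1 to 41.6) after I/R and 36.7 CPM (34.2 to 39.4) with SBP. It lies on the plus strand of chromosome 18 from 61045150 to 61085061. The sham section was low, and the intervals of I/R and SBP overlapped. *Notch3*, the mural cell Notch receptor, was at 23.4 CPM (21.6 to 25.4), 22.4 CPM (20.8 to 24.2) and 20.5 CPM (18.6 to 22.5), with overlapping intervals in all sections.

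*Kcnj8*, which encodes the pore subunit Kir6.1, was at 32.8 CPM (30.6 to 35.1) in sham, 30.7 CPM (28.7 to 32.7) after I/R and 36.1 CPM (33.6 to 38.7) with SBP. *Abcc9*, which encodes its regulatory partner SUR2, was at 87.8 CPM (84.2 to 91.6), 60.6 CPM (57.9 to 63.5) and 75.5 CPM (71.9 to 79.2). The levels of *Abcc9* were separated in all 3 sections, in the order sham, SBP and I/R. Those of its neighbor *Kcnj8* were separated between I/R and SBP alone.

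*Rgs5*, a regulator that shortens the signal of G protein-coupled receptors and a leading pericyte marker, was at 233 CPM (227 to 239) in sham, 153 CPM (148 to 157) after I/R and 197 CPM (191 to 203) with SBP, again in that order with no overlap. *Rgs4*, a regulator of the same family, was at 16.2 CPM (14.7 to 17.9), 11.6 CPM (10.4 to 12.9) and 10.8 CPM (9.48 to 12.3). Here sham stood above I/R and SBP, whose intervals overlapped.

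*Cspg4*, the surface proteoglycan NG2, was at 12.3 CPM (10.9 to 13.7) in sham, 16.2 CPM (14.8 to 17.7) after I/R and 15.4 CPM (13.8 to 17.2) with SBP. *Vtn*, the secreted adhesion protein vitronectin, was at 36.3 CPM (34.0 to 38.7), 23.1 CPM (21.4 to 24.9) and 37.4 CPM (34.8 to 40.0). Its level in SBP overlapped that in sham, and I/R stood below both.

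Of the 8 genes, 2 were past 1.5-fold lower in I/R than in sham, and 0 were past it higher. Over the 12231 genes with enough UMIs, 3.25% were past 1.5-fold lower and 22.7% higher. The 2 genes were *Vtn*, with a log2 ratio of −0.65 (−0.80 to −0.51), and *Rgs5*, with −0.61 (−0.67 to −0.55). *Abcc9* followed with −0.53 (−0.63 to −0.44) and *Rgs4* with −0.49 (−0.70 to −0.28), both under 1.5-fold. The intervals of *Kcnj8*, −0.10 (−0.23 to 0.04), and *Notch3*, −0.06 (−0.22 to 0.10), included 0. *Pdgfrb* and *Cspg4* had log2 ratios of 0.40 each, with intervals of 0.26 to 0.53 and 0.19 to 0.61.

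The median gene was higher in I/R than in sham by 0.24 on the log2 scale, and the median of the 8 genes was −0.29. With TMM factors, which take up that shift, every log2 ratio of I/R over sham moved by −0.24. *Pdgfrb* and *Cspg4* were then at 0.16 each, *Kcnj8* at −0.34 and *Notch3* at −0.30. Which of the intervals include 0 therefore depends on the scaling. The count of the 8 genes past 1.5-fold lower rose from 2 to 4. The share of all genes lower with TMM factors is not given, so that count of 4 has no share beside it. The log2 ratios of *Vtn*, *Rgs5* and *Abcc9* stood at the 2.58th, 3.07th and 4.28th percentile of all genes tested.

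Between SBP and I/R, 1 of the 8 genes was past 1.5-fold higher and 0 were past it lower, against 1.69% and 13.1% of the 12151 genes tested. This gene was *Vtn*, with a log2 ratio of 0.69 (0.54 to 0.84), at the 98.7th percentile of all genes. *Rgs5* had 0.37 (0.31 to 0.43), *Abcc9* 0.32 (0.22 to 0.41) and *Kcnj8* 0.23 (0.09 to 0.37), all under 1.5-fold. The intervals of *Pdgfrb*, *Cspg4*, *Notch3* and *Rgs4* included 0, with values from −0.13 to −0.07. The median of the 8 genes was 0.08, beside −0.17 over all genes. This ratio and that of I/R over sham share the I/R section, so a count that was low there by chance lowers the latter and raises the former.

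Between SBP and sham, 0 of the 8 genes were past 1.5-fold in either direction, against 4.85% higher and 2.39% lower of 11768 genes. *Rgs4* came closest, with a log2 ratio of −0.58 (−0.82 to −0.35). *Rgs5* and *Abcc9* were lower than in sham, by −0.24 (−0.30 to −0.18) and −0.22 (−0.31 to −0.13), while *Pdgfrb* and *Cspg4* were higher, with 0.30 (0.15 to 0.45) and 0.33 (0.10 to 0.56). *Notch3* was at −0.19 (−0.37 to −0.01). The interval of *Vtn*, −0.10 to 0.18 around 0.04, included 0, as did that of *Kcnj8*, around 0.14. The median of the 8 genes was −0.08, beside 0.08 over all genes.

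**Figure D2:**
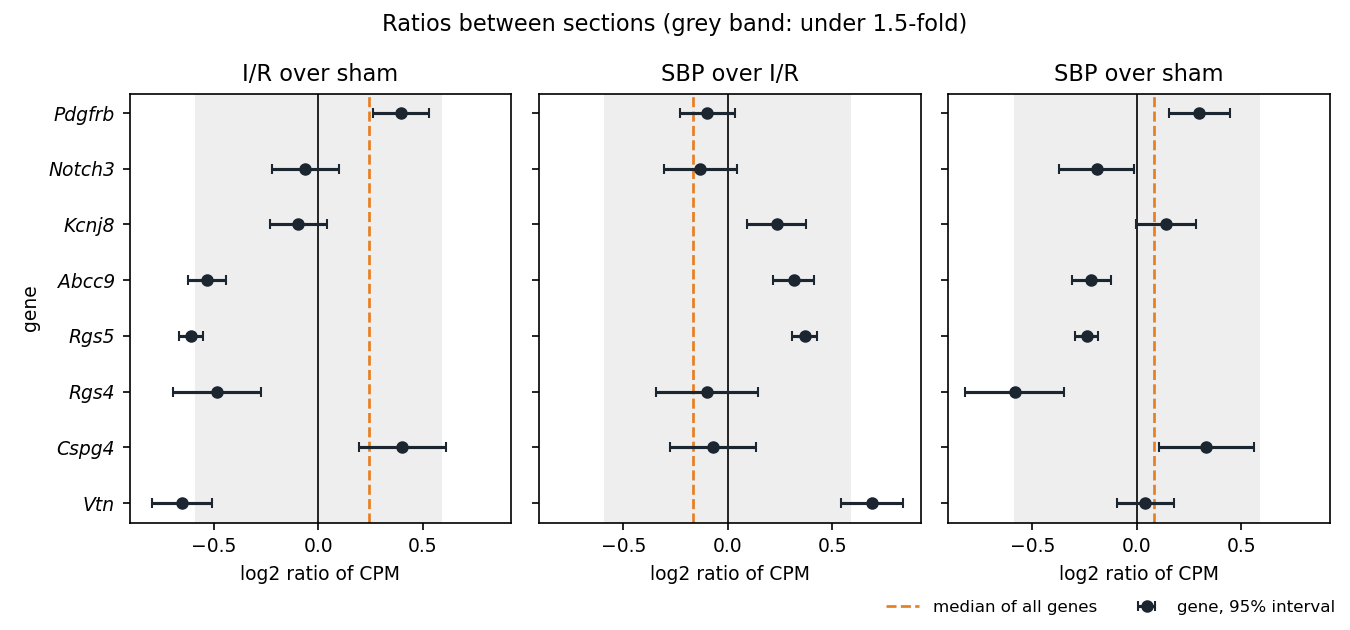
Log2 ratio of CPM for each of the 8 genes in the 3 comparisons between sections, with 95% counting intervals, the median of all genes tested (dashed) and the range under 1.5-fold (grey). *Vtn* and *Rgs5* lie below the grey range for I/R over sham, and *Vtn* lies above it for SBP over I/R.

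The spots were then compared at equal depth, since a deeper spot shows more genes. Each spot was thinned to 6500 UMIs, which left 2102 spots of sham, 1880 of I/R and 1747 of SBP and excluded 132, 202 and 213 shallower ones. *Rgs5* had a UMI in 74.0% (95% exact binomial interval 72.1 to 75.9) of thinned spots in sham, 60.4% after I/R and 69.0% with SBP. Before thinning these shares were 86.6%, 79.1% and 80.9%. *Abcc9* had a UMI in 41.7%, 30.5% and 38.0% of thinned spots, and *Vtn* in 18.9%, 12.9% and 20.1%, so that both were lowest in I/R. *Rgs4* was found in 9.66%, 6.81% and 6.70%.

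*Pdgfrb* went the other way, with 16.3% of thinned spots in sham, 21.9% after I/R and 19.9% with SBP. The shares rest on 1 random draw, whose spread the binomial intervals do not cover. Over 20 other draws *Pdgfrb* ran from 15.2% to 17.6%, 19.5% to 21.8% and 18.4% to 21.0% in these sections. The reported I/R share thus stood just above that range. The share of *Vtn* in sham, 18.9%, stood just below its range of 19.1% to 20.9%. *Cspg4* was found in 7.37%, 8.09% and 8.59%, *Notch3* in 12.9%, 13.6% and 12.0%, and *Kcnj8* in 18.4%, 17.6% and 20.1%, with smaller differences between sections. At least 1 of the 8 genes was found in 91.8%, 86.4% and 91.2% of thinned spots, and 3 or more in 30.4%, 22.8% and 29.8%. Before thinning, 3 or more were found in 52.6%, 55.7% and 51.1%, so for this share the place of I/R depended on depth.

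Genes of other organs, which heart tissue should lack, were counted as background. *Alb*, the liver gene of serum albumin, had a UMI in 0.428%, 1.65% and 1.72% of thinned spots of sham, I/R and SBP, and *Apoa2* in 0.904%, 2.02% and 1.37%. *Ins2*, *Umod*, *Sftpc*, *Krt5* and *Gfap* had none in the thinned spots of any section, which allows shares of up to 0.143%, 0.160% and 0.172%, taken as 3 of the thinned spots. All 8 pericyte genes were found in more spots than these, with shares from 6.70% upward. By level this did not hold for every gene. In I/R *Alb* was at 14.7 CPM, above *Rgs4* at 11.6 CPM and below *Cspg4* at 16.2 CPM. In sham and SBP *Alb* was at 0.438 and 4.11 CPM, below all 8 genes.

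The UMIs of these genes were spread over many spots. Over thinned spots the variance of each gene was 1.07 to 1.44 times its mean, where Poisson counts have a variance equal to the mean. For each gene, the richest 1% of spots held 4.81% to 5.54% of all *Rgs5* UMIs, 14.7% to 16.9% of *Cspg4* UMIs and 15.2% to 21.4% of *Rgs4* UMIs, depending on the section. A single spot in sham stood apart with 56 *Rgs5* UMIs, where the next held 22 and the highest of I/R and of SBP held 15. It also held 12 *Notch3* UMIs, the highest for that gene. Its 40890 UMIs, the most of any spot in sham, included 41 of 7 smooth muscle markers, 76 of fibroblast markers and 11 of endothelial markers. Without this spot, the log2 ratio of *Rgs5* between the whole I/R and sham sections was −0.60 in place of −0.61.

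Within a section the 8 genes met in the same spots little more often than their shares alone give. For the 28 gene pairs, the number of thinned spots with both genes was above the product of their shares for 24 pairs in sham, 22 after I/R and 25 with SBP, with a median ratio of 1.10, 1.11 and 1.06. Pearson's r between genes over thinned spots ran from −0.03 to 0.11. Such correlations share library and tissue region, and at these counts they are weak. Over 6187 genes with enough UMIs, those whose spot pattern was most like the summed 8 genes were *Mgp*, *Gsn*, *Sparcl1*, *Steap4* and *Ndufa4l2*, with a mean r over the 3 sections of 0.11, 0.10, 0.09, 0.08 and 0.08. *Mgp* encodes matrix Gla protein of vessel walls and *Gsn* the actin-severing gelsolin, and *Steap4* and *Ndufa4l2* belong to the list of other pericyte genes. Smooth muscle and fibroblast markers followed closely, with *Acta2* at rank 8 (0.08) and *Dcn* at rank 14 (0.07). Of the other pericyte list, the genes with enough UMIs ranked from 4 to 686, and several stood within the first 22 ranks. Markers of smooth muscle and fibroblasts stood within the same ranks, so the pattern was not particular to pericyte markers.

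*Ankrd1*, which encodes a nuclear and sarcomeric protein that cardiomyocytes raise under strain and at the edge of injury, was used to divide each section. It was at 879 CPM in sham, 1715 CPM after I/R and 1367 CPM with SBP. Spots with more *Ankrd1* per 10000 UMIs than the 95th percentile of sham spots, 27.0, were called *Ankrd1*-high. By this rule 112 spots (5.01%) were high in sham, 479 (23.0%) after I/R and 326 (16.6%) with SBP. The high spots were deeper and less mitochondrial: their median depth in I/R was 17348 UMIs against 14103 in the other spots, and mitochondrial genes took 40.6% against 45.7% of UMIs. The part of depth and mitochondrial share in the values that follow was not tested, except that leaving out mitochondrial genes is given with the alternatives.

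Within the I/R section, *Rgs5* was at 124 CPM in *Ankrd1*-high spots and 163 CPM in the other spots, a log2 ratio of −0.39 (−0.50 to −0.29). *Abcc9* was at 49.1 against 64.9 CPM, with −0.40 (−0.57 to −0.24). *Pdgfrb* was opposite, at 51.8 against 34.6 CPM, with 0.58 (0.41 to 0.75), and *Cspg4* was at 19.5 against 15.0 CPM, with 0.38 (0.09 to 0.65). *Notch3* was at 26.2 against 21.0 CPM, with 0.32 (0.08 to 0.55). The intervals of *Kcnj8*, *Vtn* and *Rgs4* included 0.

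The SBP section had the same arrangement of signs for the first 4 genes. *Rgs5* was at 159 CPM in high spots and 206 CPM in the others, with −0.37 (−0.50 to −0.25), and *Abcc9* at 60.7 against 78.8 CPM, with −0.38 (−0.58 to −0.18). *Pdgfrb* was at 50.3 against 33.7 CPM, with 0.58 (0.34 to 0.81), and *Cspg4* at 20.4 against 14.3 CPM, with 0.51 (0.13 to 0.88). The intervals of *Notch3*, *Kcnj8*, *Vtn* and *Rgs4* included 0.

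In sham, where the high spots held 34 to 407 UMIs of each gene except *Cspg4*, with 27, *Pdgfrb* was again higher in them, at 47.2 against 28.4 CPM, with 0.73 (0.39 to 1.05). *Notch3* was at 39.6 against 22.1 CPM, with 0.84 (0.46 to 1.19), but without the 1% of spots richest in it the value was 0.30. The intervals of the other 6 genes, *Rgs5* and *Abcc9* included, held 0.

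By count, 2 of the 8 genes were past 1.5-fold higher in the *Ankrd1*-high spots of sham, 0 in I/R and 0 in SBP, against 21.1%, 12.7% and 14.1% of the genes tested. The count past it lower was 0 in each section, against 2.29%, 3.19% and 3.4%. The median over all genes was itself above 0, with 0.31, 0.24 and 0.21 in the 3 sections, and the median of the 8 genes was 0.13, −0.06 and −0.07. Measured from the median of all genes, *Pdgfrb* therefore lay less far above and *Rgs5* and *Abcc9* further below, while *Cspg4* lay above it in I/R and SBP and, at 0.28, just below it in sham.

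**Figure D3:**
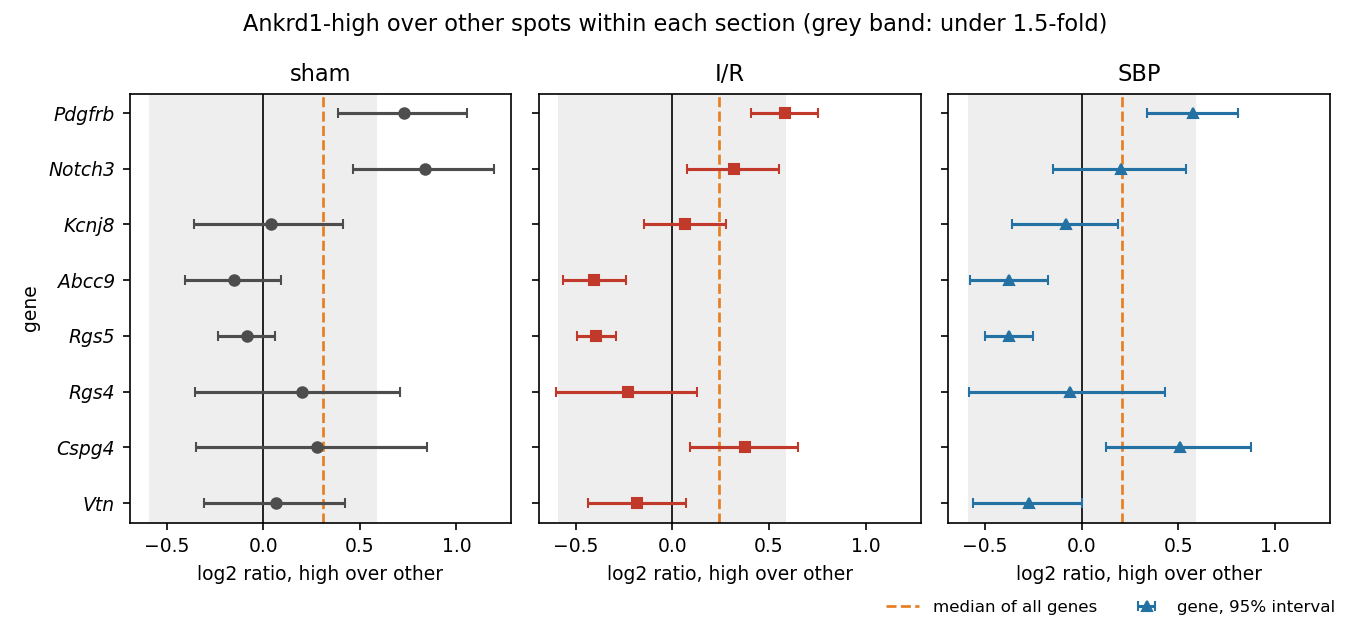
Log2 ratio of CPM in *Ankrd1*-high over other spots for each of the 8 genes, 1 panel per section, with 95% counting intervals, the median of all genes tested (dashed) and the range under 1.5-fold (grey). *Pdgfrb* lies at 0.73, 0.58 and 0.58, while *Rgs5* lies at −0.08, −0.39 and −0.37.

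The shares of spots at equal depth gave the same contrast for *Rgs5*, *Abcc9* and *Pdgfrb*, but not for every gene. *Rgs5* had a UMI in 55.0% (50.3 to 59.7) of high and 62.1% (59.5 to 64.6) of other thinned spots in I/R, and in 60.5% (54.7 to 66.1) and 70.8% (68.4 to 73.1) in SBP. *Abcc9* was found in 23.7% and 32.6% in I/R and in 29.4% and 39.8% in SBP, and also in fewer high than other spots in sham, 29.4% (21.0 to 38.8) against 42.4% (40.2 to 44.6). *Pdgfrb* was found in more high than other spots in each section, with 27.5% against 15.7% in sham, 28.6% against 19.7% after I/R and 26.0% against 18.7% with SBP. *Notch3* in sham was found in 13.8% (7.91 to 21.7) of high and 12.9% (11.5 to 14.4) of other spots, with overlapping intervals. *Cspg4* was separated in I/R, with 11.9% (9.01 to 15.2) against 6.91% (5.65 to 8.35). In SBP its intervals overlapped, with 10.5% (7.23 to 14.5) against 8.20% (6.84 to 9.73).

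The contrast was then followed along the level of *Ankrd1*. Spots were placed in 5 bins by the 25th, 50th, 75th and 95th percentile of *Ankrd1* in sham. From the lowest to the highest bin of I/R, which held 250, 337, 352, 664 and 479 spots, *Rgs5* was at 190, 171, 166, 145 and 124 CPM. In SBP it was at 219, 207, 208, 195 and 159 CPM, and in sham at 235, 250, 232, 217 and 221 CPM. Every step was downward in I/R alone. The step from 207 to 208 CPM in SBP had overlapping intervals, 193 to 222 and 193 to 224. The matching step in I/R, from 171 to 166 CPM, had overlapping intervals too, so these steps do not set the sections apart. In the lowest bin the SBP interval overlapped that of sham, and in the highest bin it lay below. The I/R level lay below those of both other sections in every bin.

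*Abcc9* was at 93.5, 88.5 and 87.6 CPM in the lowest bin of sham, I/R and SBP, with overlapping intervals, and at 79.7, 49.1 and 60.7 CPM in the highest. *Pdgfrb* was at 27.4, 26.8 and 22.7 CPM in the lowest bin and at 47.2, 51.8 and 50.3 CPM in the highest, and in neither bin were the sections separated. *Cspg4* was at 9.39, 13.2, 17.0, 17.4 and 19.5 CPM along the bins of I/R and at 10.6, 10.1, 17.6, 17.5 and 20.4 CPM along those of SBP. *Vtn* showed no such gradient: in I/R it was between 21.0 and 24.7 CPM in all 5 bins.

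**Figure D4:**
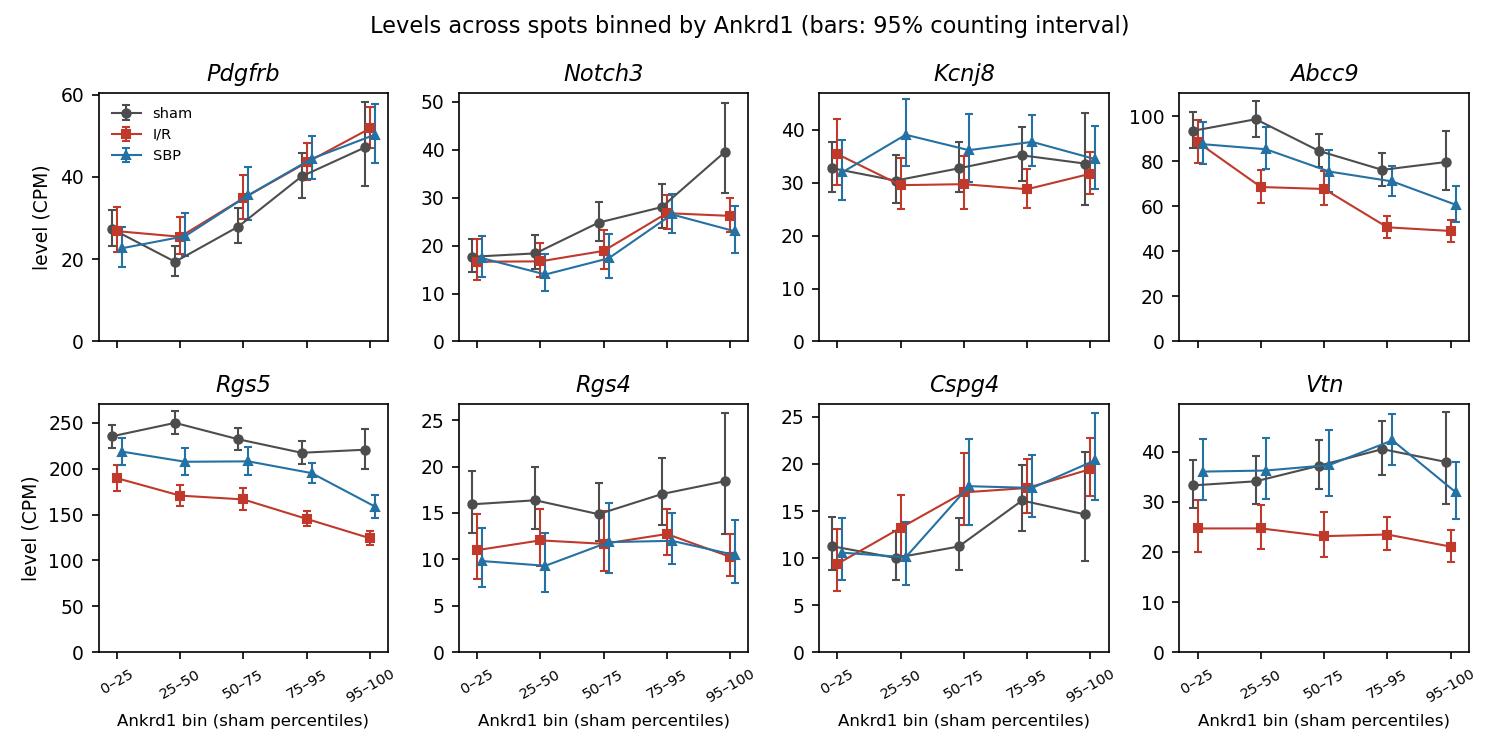
Level of each of the 8 genes, in CPM, in spots binned by their *Ankrd1* level at the 25th, 50th, 75th and 95th sham percentile, with 1 line per section and 95% counting intervals. Along the bins of I/R, *Rgs5* runs from 190 to 124 CPM and *Cspg4* from 9.39 to 19.5 CPM.

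Spots on the same side of the sham threshold were then compared between sections. Their make-up was not alike: the high spots were 5.01% of spots in sham, 23.0% after I/R and 16.6% with SBP. In these high spots fibroblast markers summed to 930, 604 and 480 CPM, and neutrophil markers to 58.5, 269 and 263 CPM. The part of these differences in the ratios was not tested. In *Ankrd1*-high spots 5 of the 8 genes were past 1.5-fold lower in I/R than in sham, against 5.49% of 9292 genes tested: *Vtn* with a log2 ratio of −0.85 (−1.26 to −0.43), *Rgs4* with −0.84 (−1.43 to −0.22), *Rgs5* with −0.83, *Abcc9* with −0.70 (−0.98 to −0.42) and *Notch3* with −0.60 (−0.98 to −0.19). Without the 1% of spots richest in each gene, 3 of the 8 were past it, *Vtn*, *Rgs4* and *Rgs5*, and *Notch3* was at −0.10 (−0.59 to 0.42). With the 90th in place of the 95th percentile 2 were past it. None was past it higher, against 11.3%. The sham spot richest in *Rgs5* was itself *Ankrd1*-high. It held 56 of the 407 *Rgs5* UMIs and 12 of the 73 *Notch3* UMIs in the high spots of sham.

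In the other spots 1 of the 8 genes, *Vtn* with −0.60 (−0.76 to −0.44), was past 1.5-fold lower, against 2.4%, and *Rgs5* was at −0.52 (−0.58 to −0.46). *Vtn* fell short of 1.5-fold there without the 1% of spots richest in it, and with TMM factors the count was 4. The 2.4% of all genes belongs to the count of 1, and no share is given with TMM factors. Whether the ratios differ between high and other spots was not tested.

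*Vtn* was past 1.5-fold higher in SBP than in I/R in both kinds of spot, with 0.60 (0.26 to 0.94) in high spots and 0.69 (0.53 to 0.86) in the others, against 1.7% and 1.71% of the genes tested. The other 7 genes were under 1.5-fold in both, where 9.69% and 11.5% of genes were past it lower. In *Ankrd1*-high spots above the 99th sham percentile, which held 28 *Vtn* UMIs in SBP and 66 in I/R, its value was 0.01 (−0.68 to 0.67). Between SBP and sham, *Rgs4* with −0.82 (−1.51 to −0.12) and *Notch3* with −0.78 (−1.25 to −0.32) were past 1.5-fold lower in high spots, against 6.12% of genes, and 0 were past it higher, against 3.97%. None was past it in the other spots, against 4.41% higher and 2.07% lower.

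Of 18 other genes used as pericyte markers, 2 were past 1.5-fold higher and 2 lower in I/R than in sham, against 22.7% and 3.25% of all genes tested, with a median log2 ratio of 0.18 beside 0.24 over all genes. The lowest were *Colec11*, a collectin, with −0.61 (−0.82 to −0.40), and *Egflam* with −0.59 (−0.88 to −0.29). The highest were *Foxs1*, a forkhead factor of mural cells, with 1.04 (0.70 to 1.39), and *Mcam*, the adhesion molecule CD146, with 0.81 (0.68 to 0.94). Between SBP and I/R 1 was higher, *Pth1r* with 0.86 (0.61 to 1.12), and 3 were lower, led by *Foxs1* with −1.53 (−1.96 to −1.12) and *Mcam* with −0.88 (−1.02 to −0.74), against 1.69% and 13.1% of all genes. Between SBP and sham 2 were higher, *Pth1r* with 0.93 and *Art3* with 0.73, and 1 lower, *Egflam* with −0.63, against 4.85% and 2.39%.

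The partners of the PDGF receptor were measured in 5 genes. In I/R over sham 1 was past 1.5-fold higher, the partner receptor *Pdgfra*, whose interval of the log2 ratio was 1.03 to 1.38, a fibroblast marker, and it was also the 1 past it in SBP over sham, with 0.69. Between SBP and I/R 0 were past it. Of all genes, 22.7% were past it higher and 3.25% lower in I/R over sham, 1.69% and 13.1% in SBP over I/R, and 4.85% and 2.39% in SBP over sham. *Pdgfb*, the ligand that endothelial cells give to pericytes, was at 18.0, 25.6 and 17.6 CPM in sham, I/R and SBP, with log2 ratios of 0.51 (0.34 to 0.68) against sham in I/R and −0.54 (−0.72 to −0.36) against I/R in SBP. Of 12 Notch ligands, receptors and targets, 0 were past 1.5-fold in these 3 comparisons between whole sections, beside the same shares of all genes. Their medians of 0.18, −0.24 and 0.08 stood beside 0.24, −0.17 and 0.08 over all genes. In *Ankrd1*-high over other spots of sham 3 of the 12 were past it higher, against 21.1% of genes, with a median of 0.04 beside 0.31 over all genes. There 0 of 12 were past it higher in I/R and 0 of 11 in SBP, against 12.7% and 14.1% of genes. Between the whole sections, the highest of the 12 in I/R over sham were *Notch1* with 0.56 and *Dll4* with 0.55, both of endothelial cells. The lowest was *Heyl*, a Notch target of mural cells, with −0.10 (−0.30 to 0.11).

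The other subunits of ATP-sensitive potassium channels, *Kcnj11* and *Abcc8*, had the order of *Abcc9*. *Kcnj11*, the pore subunit of cardiomyocytes, was at 39.7 CPM in sham, 27.1 CPM after I/R and 34.9 CPM with SBP, with a log2 ratio of −0.55 (−0.69 to −0.42) for I/R over sham, and *Abcc8* with −0.50 (−0.78 to −0.23). Both were under 1.5-fold.

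Other RGS genes, from the family of *Rgs5* and *Rgs4*, were counted in the same way. Of 14 listed, 9 had enough UMIs in I/R over sham, of which 5 were past 1.5-fold higher and 0 lower, where 22.7% and 3.25% of all genes were. *Rgs16*, at 2.09 (1.47 to 2.75), and *Rgs19*, at 1.34 (1.08 to 1.62), were the highest. Between SBP and I/R 4 of 9 were lower, among them *Rgs16* with −1.36 and *Rgs14* with −1.55, and 1 higher, *Rgs17* with 0.87, against 13.1% and 1.69% of all genes. Between SBP and sham 1 of 8 was past it higher, *Rgs17* with 0.91, and 0 lower, against 4.85% and 2.39% of all genes. Of 8 receptors and partners of vitronectin, 7 had enough UMIs, and 2 were higher in I/R than in sham, beside the same 22.7% of all genes: *Plaur*, the urokinase receptor, with 1.89 (1.54 to 2.26), and *Itgb3*, an integrin subunit of vitronectin receptors, with 1.12 (0.50 to 1.76). Between SBP and I/R 3 were lower, with *Itgb3* at −1.46 and *Plaur* at −1.09, and 0 were higher, against 13.1% and 1.69% of all genes. Between SBP and sham 1 was higher, *Plaur* with 0.80, and 1 lower, *Itgb6* with −1.10, against 4.85% and 2.39% of all genes.

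Markers of the cell types beside pericytes also moved between the sections, and their part in the values of the 8 genes was not tested. The 7 smooth muscle markers summed to 427, 333 and 221 CPM in sham, I/R and SBP, and *Acta2*, smooth muscle actin, held 6375 of their 10717 UMIs in sham. *Acta2* was at −0.60 for I/R over sham, past 1.5-fold lower, while *Cnn1*, the smooth muscle calponin, was past it higher with 0.93 and *Tagln*, transgelin, was at 0.15. The median of the 7 was 0.03, so the lower sum in I/R was not shared by every marker. For SBP over I/R 5 of the 7 were past it lower and 0 higher, against 13.1% and 1.69% of all genes. *Acta2* was at −1.01 there, and the median of the 7 was −0.61. Per smooth muscle UMI, a sum that in sham was mostly *Acta2*, the 8 genes were at −0.05 (−0.10 to 0.01) in I/R against sham, and at 0.86 (0.80 to 0.92) in SBP against I/R, with intervals that take in the counting error of both sums. The 7 endothelial markers summed to 343, 389 and 339 CPM, and per endothelial UMI the 8 genes were at −0.59 (−0.64 to −0.53) and 0.47 (0.41 to 0.53). The 6 fibroblast markers summed to 686, 608 and 587 CPM, and per fibroblast UMI the 8 genes were at −0.23 and 0.32. This sum too was not followed by every marker: the median of the 6 was 0.07 for I/R over sham. There 1 was past 1.5-fold higher, *Pdgfra*, and 1 lower, *Fbln1*, against 22.7% and 3.25% of all genes.

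The 6 cardiomyocyte markers summed to 26526, 20289 and 23143 CPM, the order of *Rgs5* and *Abcc9*, with 0 past 1.5-fold and medians of −0.34 in I/R against sham, and 0.21 in SBP against I/R. Of all genes, 22.7% were past it higher and 3.25% lower in the former comparison, and 1.69% and 13.1% in the latter. Not every cardiomyocyte marker had the order of the sum. In sham, I/R and SBP, *Actc1* was at 6678, 5212 and 4872 CPM and *Tnnt2* at 3444, 3062 and 3917 CPM. In *Ankrd1*-high over other spots the summed cardiomyocyte markers were at −0.43 in sham, −0.36 after I/R and −0.34 with SBP. The 5 macrophage markers summed to 313, 393 and 305 CPM and the 4 neutrophil markers to 27.2, 236 and 115 CPM. The 5 glial markers summed to 8.20, 8.66 and 4.90 CPM, and the 8 genes of other organs to 2.31, 21.3 and 7.07 CPM with 5 of them at 0 in each section.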

How the data were processed

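Visium libraries from 3 mouse heart sections were used, 1 each for sham, I/R and SBP. The authors deposited, for each section, a matrix of whole-number UMI counts per gene and spot, with no normalization. The submitters' processing notes name Space Ranger 1.3.0 and mm10, and strand handling is not given in the sources used here. Sections were assigned from the labels.

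Computed here, with Python 3.11.15 (scipy 1.17.1, numpy 2.4.6, matplotlib 3.10.9, pandas 2.3.3): spots with fewer than 200 genes were left out (3, 1 and 2), counts were summed and divided by the section total, and ratios were given 95% exact conditional binomial intervals. Intervals were run on simulated Poisson counts, the model they assume, so this run cannot show how they hold under the wider spread of counts between real spots. Spots were thinned to 6500 UMIs without replacement. TMM factors came from edgeR 4.0.16 in R 4.3.3. Intervals cover counting error only. The median of all genes and the percentage past 1.5-fold stand beside the main counts of the 8 genes. Counts under the alternatives are given without that percentage. Of the gene IDs, 32235 were found in GENCODE M21 and 50 were not.

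All 8 genes were named. Of each list, counts and at most the 2 highest and 2 lowest genes with at least 50 UMIs were named, with the 5 genes most like the sum and *Ankrd1*. *Gm17276*, *5330439B14Rik*, *Acta2* and the genes of other organs were named because a value turns on them, and *Kcnj11* and *Pdgfb* as partners. The genes and lists were chosen with earlier results of these data known. Alternatives were other scalings, spot filters, *Ankrd1* thresholds, thinning seeds and spots left out; those within *Ankrd1*-high or other spots between sections, and that without 1 sham spot, were chosen after seeing the data. From the list of vitronectin receptors and partners, 1 gene is not reported here and was left out of its counts.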

Additional observations from a re-analysis of the deposited data

How the results depend on the processing

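No replicate could be left out with 1 section per condition, and depth limits the rarest genes, with 27 *Cspg4* UMIs in the *Ankrd1*-high spots of sham. No paired analysis was possible because there was a single section of each kind. Of the ratios between sections or of high over other spots whose interval excluded 0, none changed sign under the alternatives run. The log2 ratio of the summed genes between I/R and sham, −0.40, was −0.52 without mitochondrial genes, −0.64 with TMM factors and −0.62 with median-of-ratios size factors, and the count of genes past 1.5-fold lower was 4 in place of 2 under each. The 3.25% of all genes belongs to the count of 2. These scalings shift all genes alike, and no share of all genes is given under them. That of SBP over I/R, 0.27, was 0.32, 0.43 and 0.40, and that of SBP over sham, −0.13, was −0.20, −0.21 and −0.22. The count lower in SBP than in sham was 1 in place of 0, *Rgs4*, under each of these scalings, without the 1% of spots richest in each gene and without the sham spot richest in *Rgs5*. TMM factors shifted all log2 ratios by −0.24, 0.16 and −0.08 in the order I/R over sham, SBP over I/R and SBP over sham. With at least 200 UMIs per gene, 1.02% of all genes in place of 1.69% were past 1.5-fold higher in SBP than in I/R, and 1.22% in place of 2.39% were lower in SBP than in sham.

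For *Ankrd1*-high over other spots, the summed genes in sham, 0.07, were at −0.037 without mitochondrial genes and −0.13 without the richest spots. In I/R, −0.13 became −0.26 without mitochondrial genes, and in SBP, −0.17 became −0.046 at the 90th and −0.37 at the 99th percentile. Within high spots, the count lower in I/R than in sham, 5, was 2 at the 90th percentile, 3 at the 99th and 3 without the richest spots, and the count higher, 0, was 1 at the 99th, *Cspg4*, with 3 UMIs in sham. Within other spots, the count lower, 1, was 0 at the 90th percentile, 0 without the richest spots and 4 with TMM factors. The count higher in SBP than in I/R within high spots, 1, was 0 at the 99th percentile and 0 with *Ankrd1* counted after thinning. The count lower in SBP than in sham within high spots, 2, was 0 at the 90th percentile, 1 at the 99th and 1 without the richest spots, and within other spots, 0, it was 1 at the 90th percentile, 1 without the richest spots and 1 with TMM factors. Where a scaling moved a value, its factor is the cause by construction; otherwise the cause was not tested.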
